A study of Mus musculus with 10 samples.

Results

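S100 proteins are small calcium-binding proteins of vertebrates, and the transcripts of 8 of them (S100a1, S100a4, S100a6, S100a8, S100a9, S100a10, S100a11 and S100a13) are described here in splenic type 2 conventional dendritic cells (cDC2), the dendritic cell subset that presents antigen to CD4 T cells. The 8 genes were chosen by name, with results of these arrays already known, and each is represented by the 1 probe set that names it alone and has the highest mean log2 signal over all 10 arrays. They are 8 of 17 S100 genes measured, among 19938 genes in all. Since the choice was made with the values in view, the number of S100 genes that changed says nothing about the family as such.

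The cells were sorted from spleens digested with Collagenase B and DNase and enriched for CD11c+ cells, and their RNA was hybridised to Affymetrix Mouse Gene 1.0 ST arrays. Wild-type mice (WT) were compared with mice of the genotype CD11c-Cre+ Notch2f/f, named Notch2-11cKO in the sample titles, in which a Cre recombinase under the CD11c promoter acts on floxed Notch2 alleles. CD11c is expressed by dendritic cells and by some macrophages and other leukocytes, so the deletion is not limited to cDC2. Mice of each genotype were taken at steady state (2 arrays each) or 24 hours after an intraperitoneal injection of 200000000 sheep erythrocytes (SRBC in the labels, a classical immunogen whose particles are taken up in the spleen; 3 arrays each). The labels give no age or sex, do not say whether the WT mice carried Cre or floxed alleles, and do not say that replicates were separate mice, so p-values measure the spread between these arrays, which may be technical in part.

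S100 proteins bind calcium through a pair of EF-hand loops, mostly as dimers, and the bound form exposes a surface that grips a target protein. Some act inside the cell on annexins, the cytoskeleton or ion pumps. S100a8 and S100a9 form calprotectin, which phagocytes release at sites of inflammation and which signals through Toll-like receptor 4, while S100a10 is atypical, holding its active shape without calcium and pairing with annexin A2. In the spleen, Notch2 signalling supports the ESAM-high cDC2, and the remaining ESAM-low cDC2 share transcripts with monocytes.

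Intensity medians lay between 29.5 and 31.7 over the arrays, the deposited values came without detection calls, and precision is set by how few arrays there are. WT SRBC 1 (Pearson r of 0.971 and 0.971 with the other WT SRBC arrays, against 0.990 between those) and Notch2-11cKO SRBC 3 (0.978 and 0.975, against 0.988) stood somewhat apart. The Notch2 signal did not separate the genotypes: in log2 units it lay between 8.11 and 8.14 in WT untreated, 7.09 and 7.58 in WT SRBC, 8.17 and 8.37 in Notch2-11cKO untreated and 7.23 and 7.96 in Notch2-11cKO SRBC. The position of its probes relative to the floxed exons was not known, so it does not check the labels. The ESAM-high cDC2 list did differ, with 5 of 7 genes lower in Notch2-11cKO in either treatment (Esam, Clec4a4, Dtx1 and Tbx21 in each). Of all genes, 5.11% passed between the genotypes untreated and 5.32% after SRBC. All 8 defining markers of conventional dendritic cells read above the median gene (5.01 to 5.11) on each array, from Zbtb46 (log2 5.97 to 7.19) to Cd74 (11.86 to 12.50). None of the 8 passed the test in the 4 simple comparisons, with 4, 3, 2 and 2 of 8 at an unadjusted limma p below 0.05. The shares of all genes passing in the WT and Notch2-11cKO responses were 3.79% and 0.306%.

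Of the 18 S100 genes in the RefSeq gene table, 15 lie on chromosome 3. S100a1, S100a13, S100a14, S100a16, S100a3, S100a2, S100a4, S100a5, S100a6, S100a7a, S100a8 and S100a9 follow each other with no other coding gene between them, and S100a11 and S100a10 are neighbours at another place of that chromosome. RefSeq promoter windows were matched for 7 of the 8 genes (S100a10 was not matched). The 250 bases before the annotated start are shown for S100a8 and S100a9, which are neighbours and followed each other across the arrays, and for S100a11, the gene that went the opposite way between the genotypes. Positions are on GRCm38.p6, chr3:90668821-90669070 on the plus strand for S100a8, chr3:90695722-90695971 on the minus strand for S100a9 and chr3:93520246-93520495 on the plus strand for S100a11. Each is written in the direction of transcription, and capitals mark the motif matches described next.
S100a8: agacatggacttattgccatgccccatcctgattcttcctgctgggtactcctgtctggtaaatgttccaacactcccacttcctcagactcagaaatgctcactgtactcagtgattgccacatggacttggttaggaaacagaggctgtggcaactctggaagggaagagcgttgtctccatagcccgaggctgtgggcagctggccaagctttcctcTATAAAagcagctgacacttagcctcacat
S100a9: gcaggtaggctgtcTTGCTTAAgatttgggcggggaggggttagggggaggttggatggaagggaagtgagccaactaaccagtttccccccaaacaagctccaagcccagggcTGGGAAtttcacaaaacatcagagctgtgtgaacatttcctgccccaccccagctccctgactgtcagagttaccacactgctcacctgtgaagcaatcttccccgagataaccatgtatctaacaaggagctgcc
S100a11: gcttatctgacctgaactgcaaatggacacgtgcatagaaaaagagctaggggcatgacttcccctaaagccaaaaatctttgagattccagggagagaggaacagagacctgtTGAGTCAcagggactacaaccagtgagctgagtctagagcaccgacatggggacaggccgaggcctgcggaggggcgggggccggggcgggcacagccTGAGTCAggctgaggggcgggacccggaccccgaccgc

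Strings of letters for 5 motifs were searched on both strands in these windows. The TATA box was taken as TATAAA. For the C/EBP type TTNNGCAA was used. The core bound by RBPJ, the DNA-binding partner of Notch, was TGGGAA. The AP-1 type was TGANTCA, and the STAT type was TTCNNNGAA. An RBPJ core can lie within a STAT-type match, but none of the 7 windows held the STAT type. S100a8 held a TATA box whose first base was 30 bases before the start, and S100a4 held one at 31. S100a9 held an RBPJ core 136 bases and, on the opposite strand, a C/EBP-type match 236 bases before its start. S100a11 held AP-1-type matches at 136 and at 38 bases, and S100a6 and S100a4 held an RBPJ core on the opposite strand at 74 and 140 bases. Among 32841 windows of this length, 12.4% held the TATA box, 9.57% the C/EBP type, 21.6% the RBPJ core, 6.75% the AP-1 type and 7.02% the STAT type, so such matches are common. They describe letters and do not show that a factor binds there.

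S100a8, 1 chain of calprotectin, had the largest SRBC response among the 8 genes in either genotype. On the arrays it read, in log2 units, 4.08 and 3.98 in WT untreated, 6.69, 6.50 and 7.46 in WT SRBC, 4.75 and 6.07 in Notch2-11cKO untreated, and 8.98, 8.85 and 7.59 in Notch2-11cKO SRBC. The 6 SRBC arrays were all above the 4 untreated arrays, which held for S100a8 alone among the 8 genes and for 2.62% of all genes. The lowest values were the WT untreated pair, and the highest were Notch2-11cKO SRBC 1 and 2. The WT untreated values, and Notch2-11cKO untreated 1, lay below the median gene of an array (5.01 to 5.11) and, with no detection calls, are not shown to be above background, so folds and ranks against them compare measured intensities only.

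In WT, S100a8 rose 7.23-fold after SRBC, a log2 difference of 2.85 ± 0.46 (SE of the limma fit; 95% interval 1.84 to 3.86; adjusted p = 0.00658), and ranked 24 by size of rise among all genes. S100a8 was the 1 gene of the 8 that passed in this comparison, where 3.79% of all genes did (1.82% higher). In Notch2-11cKO it rose 8.37-fold, by 3.07 ± 0.46 (2.06 to 4.07; adjusted p = 0.0263), and ranked 3. Again it was the 1 of 8 that passed, where 0.306% of all genes did (0.14% higher). The difference between the responses was 0.21 ± 0.65 (-1.22 to 1.64; adjusted p = 0.991).

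Leaving out arrays ended both calls. The WT response had an adjusted p of 0.0899 without WT untreated 1 and 0.0735 without WT untreated 2, at 2.90 and 2.80. In Notch2-11cKO the response of S100a8 was 2.41 (adjusted p = 0.286) without Notch2-11cKO untreated 1, and its adjusted p was 0.0632 and 0.0635 without WT untreated 1 or 2, 0.068 and 0.084 without Notch2-11cKO SRBC 1 or 2, and 0.0913 when only the groups compared were fitted.

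Between the genotypes, S100a8 was higher in Notch2-11cKO by 1.38 ± 0.50 in untreated cells (adjusted p = 0.191) and by 1.59 ± 0.41, or 3.02-fold, after SRBC (0.69 to 2.50; adjusted p = 0.048). The second of these lay at the threshold: S100a8 passed in 10 of 22 alternative settings, with differences from 1.34 to 2.03 and adjusted p from 0.00591 to 0.17, and was lost without any of WT untreated 1 or 2, WT SRBC 1 or 2 and Notch2-11cKO SRBC 1 or 2 (0.082 to 0.17).

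S100a9, the other chain of calprotectin, followed S100a8 with a wider spread. Its log2 intensity was 4.43 and 4.43 in WT untreated, 6.74, 6.74 and 7.32 in WT SRBC, 4.73 and 7.46 in Notch2-11cKO untreated, and 8.79, 8.26 and 6.88 in Notch2-11cKO SRBC. The WT groups did not overlap, but Notch2-11cKO untreated 2 was above Notch2-11cKO SRBC 3. The WT untreated values and Notch2-11cKO untreated 1 lay below the median gene of an array. They are not shown to be above background, so differences against them compare measured intensities only. The response of S100a9 was 2.50 ± 0.68 in WT (1.02 to 3.99; adjusted p = 0.0684) and 1.88 ± 0.68 in Notch2-11cKO (0.39 to 3.37; adjusted p = 0.36), and neither passed.

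Over all settings S100a9 passed in WT in 7 of 22, with adjusted p from 0.00293 to 0.343. Without Notch2-11cKO untreated 1 or 2 its response in Notch2-11cKO ranged from 0.51 to 3.25 with no call, since these arrays differ by more than the response itself. The genotype difference of S100a9 was 1.67 ± 0.74 untreated (adjusted p = 0.327) and 1.04 ± 0.61 after SRBC (adjusted p = 0.429); untreated, it became 3.03 (adjusted p = 0.0295) without Notch2-11cKO untreated 1.

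S100a8 and S100a9 deviated together within groups. In Notch2-11cKO untreated, array 2 was above array 1 for both genes, and in Notch2-11cKO SRBC array 3 was the lowest for both, by 0.88 for S100a8 and 1.10 for S100a9 below the group mean. Over the 10 arrays Pearson r between the genes was 0.948, and between deviations from the group means 0.931; the points share hybridisations, so this is a description. In the plot of every array the same replicate numbers sit high and low for both genes.

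**Figure D1:**
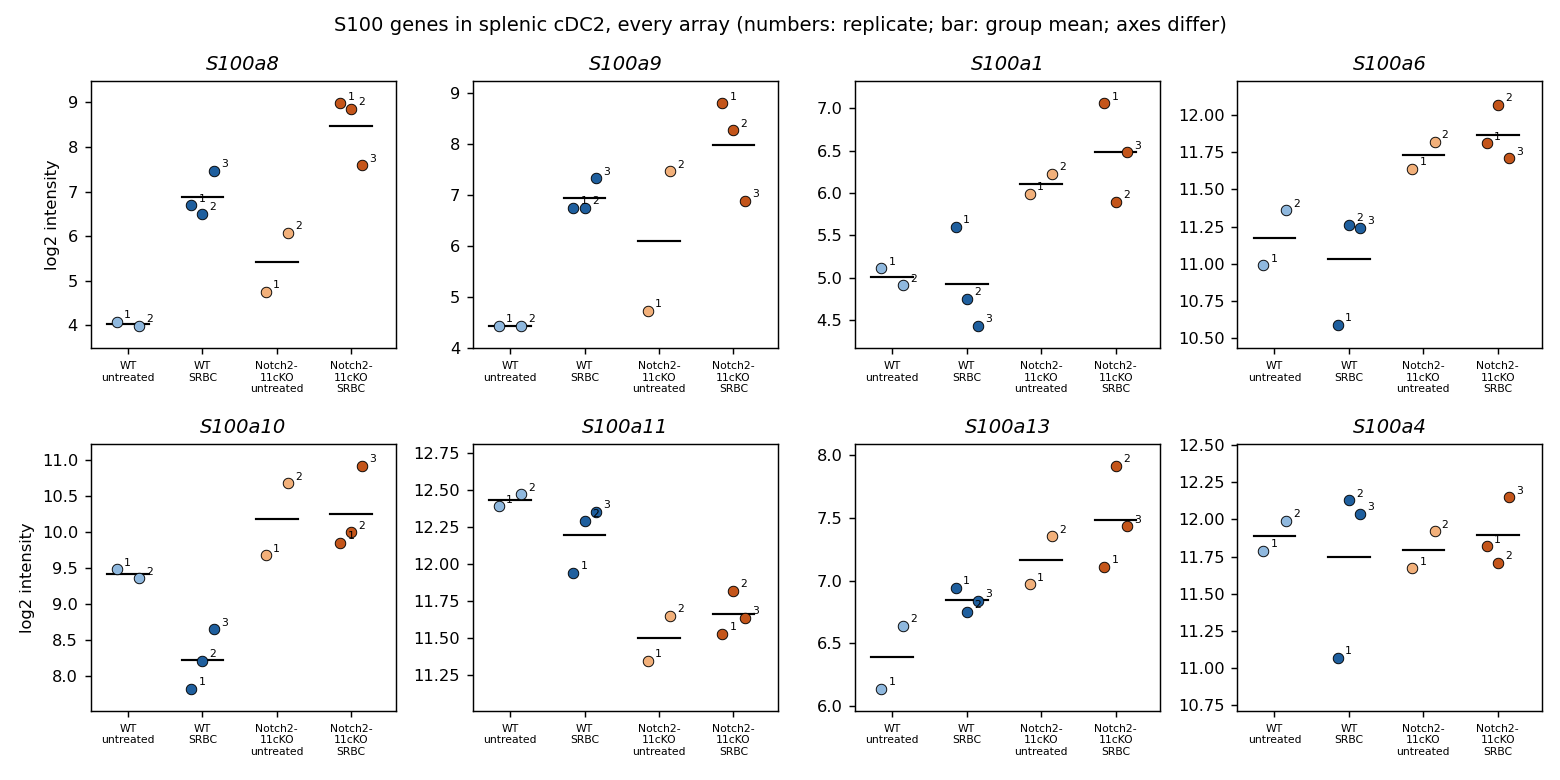
Log2 intensity (y axis, a separate scale for each gene) of the 8 S100 genes on every array, by group (x axis); points are arrays numbered by replicate and bars are group means. S100a8 is above all untreated arrays on the 6 SRBC arrays, S100a1, S100a6, S100a10 and S100a13 are higher and S100a11 lower on the 5 Notch2-11cKO than on the 5 WT arrays, and S100a4 overlaps in all groups.

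Because neutrophils and monocytes carry S100a8 and S100a9 as abundant transcripts, markers of those cells are given beside these results. Of 15 neutrophil markers measured, none passed in either SRBC response (3 in WT and 4 in Notch2-11cKO at an unadjusted limma p below 0.05). Of all genes, 3.79% passed in the WT response and 0.306% in the Notch2-11cKO response, so no call among 15 genes lies near these shares. The summed intensity of the 15 markers ranged from 331 to 357 in WT untreated, 285 to 324 in WT SRBC, 351 to 379 in Notch2-11cKO untreated and 336 to 376 in Notch2-11cKO SRBC. The surface marker Ly6g stayed between log2 2.60 and 3.22 on the 10 arrays, and the granule genes Camp (4.36 to 4.76) and Ltf (3.61 to 4.01) were about as level, all below the median gene of an array. In Notch2-11cKO the granule gene Ngp read 4.23 and 4.34 untreated and 4.96, 4.78 and 5.25 after SRBC, without overlap (0.71 ± 0.27, limma adjusted p = 0.381). Retnlg, a resistin-like gene of neutrophils, read 3.31 and 3.64, then 4.46, 3.82 and 3.68 there, also without overlap (0.51 ± 0.20, limma adjusted p = 0.4). Both genes were thus on the same side as S100a8 in that response, and neither passed. Others were lower after SRBC: Mmp9 in WT (-0.77 ± 0.23, limma adjusted p = 0.0925), Cd177 in Notch2-11cKO (-0.34 ± 0.13, limma adjusted p = 0.412) and Csf3r in both (-0.64 ± 0.17 and -0.73 ± 0.17, limma adjusted p = 0.0697 and 0.123). Lcn2, a granule protein that phagocytes also induce, had the order of S100a8 in part: 3.14 and 3.40, then 3.56, 3.53 and 4.37, then 3.58 and 3.82, then 4.21, 4.45 and 3.98 in the same group order, with differences of 0.55 (adjusted p = 0.257) and 0.51 (adjusted p = 0.505) after SRBC.

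Csf3r, the receptor for granulocyte colony-stimulating factor, was the neutrophil marker that differed between genotypes, higher in Notch2-11cKO by 1.03 ± 0.19 untreated (adjusted p = 0.00841) and 0.93 ± 0.15 after SRBC (adjusted p = 0.00447). Of 11 monocyte markers, 6 were higher (Ccr2, Lyz2, Csf1r, F13a1, Fn1 and Cx3cr1) and Plac8 was lower in Notch2-11cKO in each treatment. Of all genes, 5.11% passed untreated and 5.32% after SRBC. The summed intensity of the 11 markers was 3170 to 3750 and 2870 to 3010 in WT untreated and SRBC, against 11300 to 12700 and 9400 to 10300 in Notch2-11cKO. None of the 11 passed in either SRBC response, where 3.79% (WT) and 0.306% (Notch2-11cKO) of all genes did. Of the 11, 1 and 2 had an unadjusted limma p below 0.05, all lower. Their summed intensity was lower after SRBC, without overlap, in both genotypes. The mean log2 intensity of the 11 was lower without overlap in Notch2-11cKO only (8.02 to 8.10 untreated, 7.81 to 7.95 after SRBC). In WT it overlapped, at 6.31 to 6.50 untreated and 6.31 to 6.36 after SRBC.

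Of 12 macrophage markers, 3 rose in the WT response (C1qc, Vcam1 and Spic) and 7 untreated and 8 after SRBC were higher in Notch2-11cKO, with summed intensities of 801 to 869, 1460 to 2060, 2660 to 3370 and 3140 to 3780 in WT untreated, WT SRBC, Notch2-11cKO untreated and Notch2-11cKO SRBC. Of all genes, 3.79% passed in the WT response, 5.11% between untreated genotypes and 5.32% after SRBC. The part of neutrophils, monocytes and macrophages in the S100 differences was not tested. In sorted bulk cells a larger share of cells with a transcript and more of it per cell cannot be told apart.

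**Figure D2:**
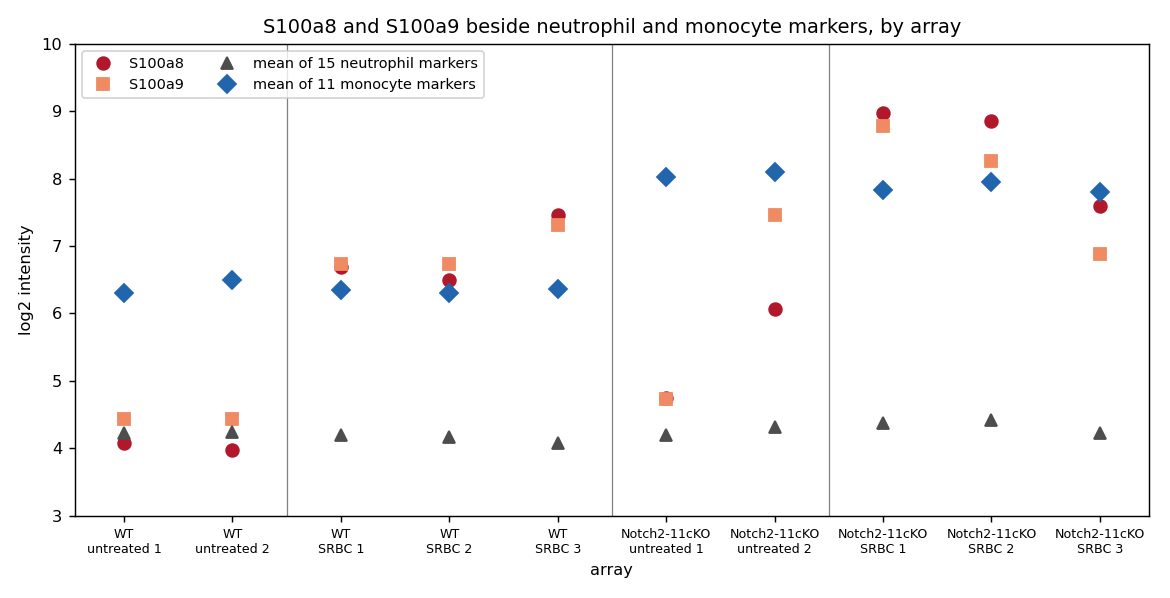
Log2 intensity (y axis) of S100a8 and S100a9 and the mean log2 intensity of 15 neutrophil and 11 monocyte markers on each of the 10 arrays (x axis, grouped by vertical lines). Neutrophil markers lie between 4.08 and 4.42 on all arrays while S100a8 spans 3.98 to 8.98; monocyte markers are higher on all Notch2-11cKO arrays (7.81 to 8.10) than on all WT arrays (6.31 to 6.50), and within Notch2-11cKO lower on the SRBC arrays (7.81 to 7.95) than on the untreated ones (8.02 to 8.10). Heights of different genes are not comparable, since each has its own probes.

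Factors known to act on the S100a8 and S100a9 genes were examined as a list of 6. Cebpa, a C/EBP factor of myeloid development, was higher in Notch2-11cKO by 2.20 ± 0.25 untreated (adjusted p = 0.00036) and 1.55 ± 0.21 after SRBC (adjusted p = 0.00113). Cebpd, an inflammation-induced relative, was higher in Notch2-11cKO than in WT by 0.73 ± 0.15 among the SRBC arrays (adjusted p = 0.0153). Between the genotypes 5.11% of all genes passed untreated and 5.32% after SRBC. In the SRBC responses none of the 6 passed, where 3.79% (WT) and 0.306% (Notch2-11cKO) of all genes did. At an unadjusted limma p below 0.05 were 3 in WT and 2 in Notch2-11cKO. In WT these were Stat3 at 0.51 ± 0.18 (adjusted p = 0.165), Cebpd at -0.48 ± 0.17 (adjusted p = 0.148) and Cebpe at -0.37 ± 0.16 (adjusted p = 0.26). In Notch2-11cKO they were Cebpa at -0.67 ± 0.23 (adjusted p = 0.333) and Cebpb at -0.51 ± 0.23 (adjusted p = 0.499). These values were picked by their unadjusted p, and the part of the 6 factors in the response of S100a8 was not tested.

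Receptors for extracellular S100 proteins were a list of 7. Cd36, a scavenger receptor that binds calprotectin with its fatty acid cargo, rose in the WT response by 2.06 ± 0.34 (adjusted p = 0.00725) and was higher in Notch2-11cKO by 5.12 ± 0.37 untreated (adjusted p = 1.59e-05) and 3.21 ± 0.30 after SRBC (adjusted p = 1e-04). Its log2 intensity was 4.18 and 4.69 in WT untreated, 6.24, 6.54 and 6.70 in WT SRBC, 10.09 and 9.01 in Notch2-11cKO untreated, and 10.03, 9.19 and 9.89 in Notch2-11cKO SRBC, so the genotypes did not overlap. The WT untreated values of Cd36 lay below the median gene and are not shown to be above background. Tlr4, the calprotectin receptor, was at 1.78 ± 0.48 between untreated genotypes (adjusted p = 0.0597) and its partner Ly96 at 1.53 ± 0.46 (adjusted p = 0.0958). After SRBC the genotype difference of Tlr4 was 1.16 ± 0.39 with overlapping groups (adjusted p = 0.13), and that of Ly96 0.91 ± 0.37 (adjusted p = 0.23). Tlr4 read 4.22 and 5.03 in WT untreated, below or near the median gene and not shown to be above background. Ager, the receptor for advanced glycation end products and a second S100 receptor, was at -0.37 ± 0.19 (adjusted p = 0.421). In the Notch2-11cKO response none of the 7 passed or had an unadjusted limma p below 0.05 (0 of 7).

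Over the genotypes, 5 of the 8 genes did not overlap between the 5 Notch2-11cKO and the 5 WT arrays, whatever the treatment: S100a1, S100a6, S100a10 and S100a13 were higher and S100a11 was lower in Notch2-11cKO. Such separation held for 7.48% of all genes (4.43% higher and 3.04% lower). The gaps between the genotypes were small next to the spread, at 0.30 log2 units for S100a1, 0.28 for S100a6, 0.20 for S100a10, 0.12 for S100a11 and 0.03 for S100a13. In the fit, 1 of 8 passed untreated (S100a11, lower), where 5.11% of all genes did (2.16% lower). After SRBC 4 of 8 passed (S100a1, S100a6, S100a8 and S100a10, all higher), where 5.32% of all genes did (3.36% higher). The median difference of the 8, which were chosen with the values in view, was 0.764 untreated and 0.936 after SRBC. Over all 17 measured S100 genes it was 0.0625 and 0.149, and over all genes -0.0238 and -0.0204. These comparisons use different arrays, but each shares its arrays with the SRBC responses.

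**Figure D3:**
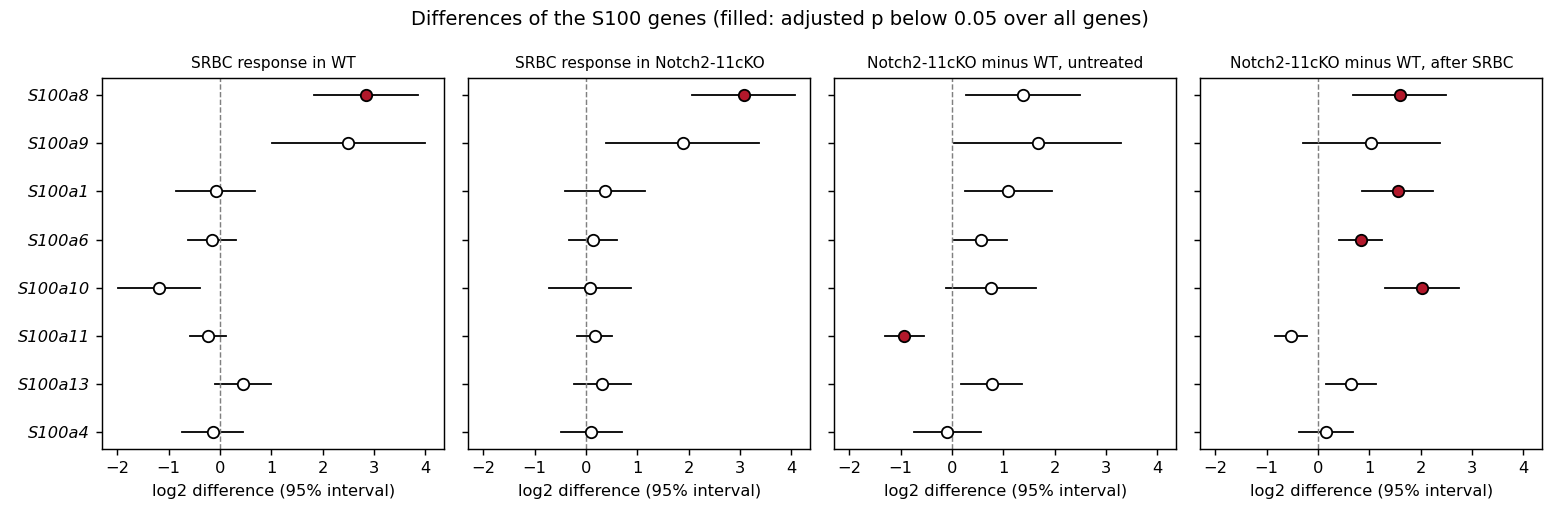
Log2 difference with its 95% interval (x axis) for each of the 8 S100 genes (y axis) in the SRBC response of either genotype and between the genotypes in either treatment; filled points have a limma adjusted p below 0.05 over all genes. S100a8 is filled in both responses, S100a11 untreated, and S100a1, S100a6, S100a8 and S100a10 after SRBC.

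S100a10, the partner of annexin A2 at the cell surface, had the largest genotype difference of the 8 after SRBC. Its log2 intensity was 9.48 and 9.36 in WT untreated, 7.82, 8.21 and 8.65 in WT SRBC, 9.68 and 10.68 in Notch2-11cKO untreated, and 9.85, 10 and 10.92 in Notch2-11cKO SRBC. The WT SRBC arrays were the lowest 3 and did not overlap with any other group. After SRBC it was 4.08-fold higher in Notch2-11cKO, by 2.03 ± 0.33 (1.31 to 2.74; adjusted p = 0.00371), which passed in all 22 alternative settings with differences from 1.49 to 2.24.

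Untreated, the difference of S100a10 was 0.76 ± 0.40 (-0.12 to 1.64; adjusted p = 0.444), and from 0.26 to 1.26 without 1 array at a time. Its response to SRBC was -1.19 ± 0.36 in WT (-1.99 to -0.39; adjusted p = 0.106) and 0.08 ± 0.36 in Notch2-11cKO (-0.72 to 0.88; adjusted p = 0.969). The difference between these responses was 1.27 ± 0.52 (0.13 to 2.40; adjusted p = 0.712) by limma. No interaction of the 8 genes passed (0 of 8, with S100a10 as the 1 at an unadjusted limma p below 0.05), where 0.0201% of all genes did. The WT value passed in 4 of 22 settings.

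Anxa2, which encodes the annexin that binds S100a10, moved otherwise in WT. Its log2 intensity was 7.14 and 7.98 in WT untreated, 7.89, 9.18 and 9.18 in WT SRBC, 8.64 and 9.05 in Notch2-11cKO untreated, and 9.27, 9.23 and 9.88 in Notch2-11cKO SRBC. WT SRBC 1 sat with the untreated arrays. The Anxa2 response was 1.19 ± 0.40 in WT (adjusted p = 0.134) and the genotype difference 1.28 ± 0.43 untreated (adjusted p = 0.146) and 0.71 ± 0.35 after SRBC (adjusted p = 0.337); none passed. Ahnak, a giant scaffold protein recruited by S100a10 and annexin A2, was higher in Notch2-11cKO by 3.39 ± 0.25 untreated (adjusted p = 1.59e-05) and 2.86 ± 0.20 after SRBC (adjusted p = 1.71e-05), with WT arrays between 5.32 and 6.27 and Notch2-11cKO arrays between 8.65 and 9.29.

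Annexins bind membranes in the presence of calcium, and several carry S100 partners. Among 12 annexins, 4 were higher (Anxa1, Anxa3, Anxa4 and Anxa5) and 1 lower (Anxa6) in untreated Notch2-11cKO, and 3 higher (Anxa1, Anxa4 and Anxa5) and 1 lower (Anxa6) after SRBC. The list was chosen with earlier results known, and of all genes 5.11% passed untreated and 5.32% after SRBC. Anxa1, which binds S100a11, was at 6.41 and 7 in WT untreated, 6.22, 6.42 and 6.54 in WT SRBC, 8.13 and 8.83 in Notch2-11cKO untreated, and 8.99, 8.69 and 9.25 in Notch2-11cKO SRBC. It was 3.42-fold higher untreated (1.77 ± 0.29, adjusted p = 0.00411) and 6.01-fold higher after SRBC (2.59 ± 0.24, adjusted p = 8.92e-05).

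Anxa6, another annexin with S100 partners, was 4.20-fold lower in untreated Notch2-11cKO (-2.07 ± 0.24, adjusted p = 0.000346) and 2.38-fold lower after SRBC (-1.25 ± 0.19, adjusted p = 0.00283), and in WT it fell 2.06-fold after SRBC (-1.04 ± 0.22, adjusted p = 0.0235). Anxa3 rose 9.25-fold in the WT response (3.21 ± 0.27, adjusted p = 0.000207). Anxa11, the annexin that binds S100a6, was at -0.84 ± 0.24 untreated (adjusted p = 0.0867). In the Notch2-11cKO response none of the 12 passed (2 at an unadjusted limma p below 0.05), where 0.306% of all genes did.

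**Figure D4:**
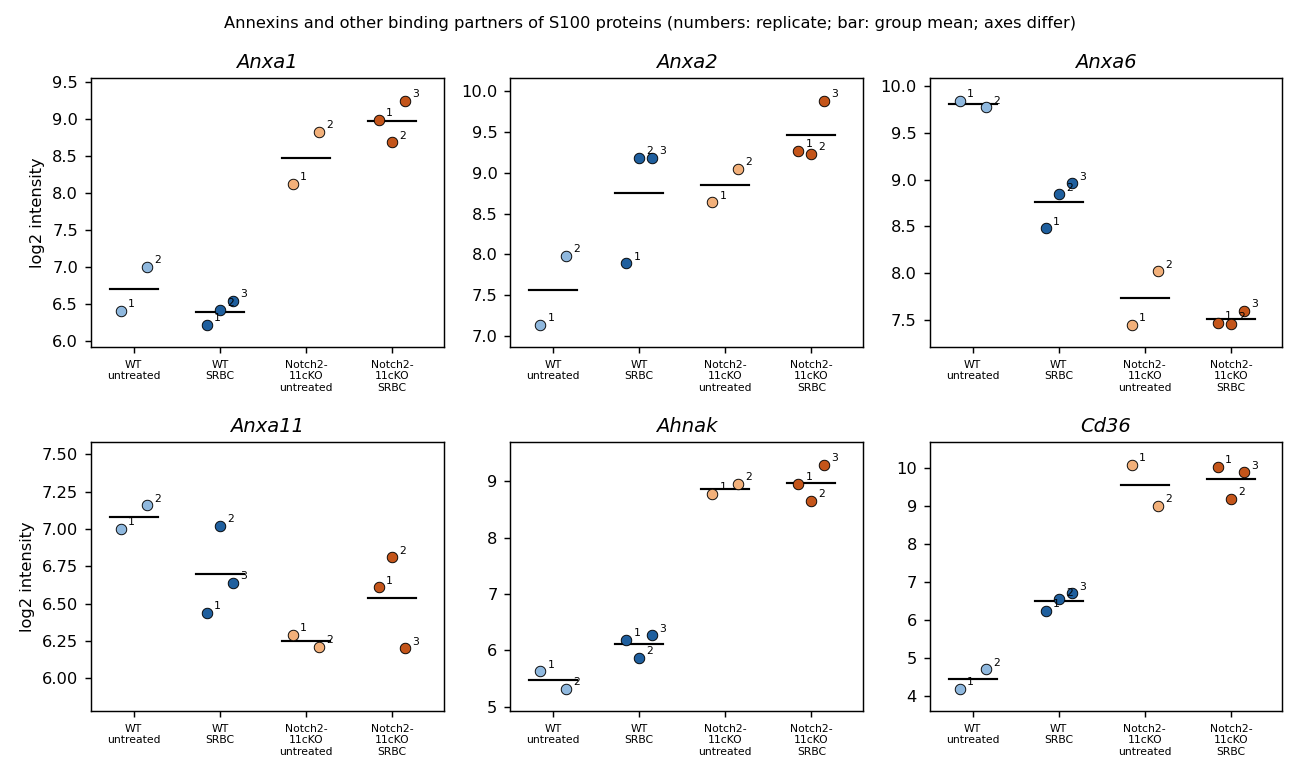
Log2 intensity (y axis, a separate scale for each gene) of 4 annexins, Ahnak and Cd36 on every array by group (x axis); points are arrays numbered by replicate and bars are group means. Anxa1, Ahnak and Cd36 are higher and Anxa6 lower on all Notch2-11cKO arrays than on all WT arrays, whereas Anxa11 overlaps after SRBC.

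S100a11, an S100 protein that binds annexins A1 and A6, was lower in Notch2-11cKO. By array, the log2 signal was 12.39 and 12.47 in WT untreated, 11.94, 12.29 and 12.35 in WT SRBC, 11.35 and 11.65 in Notch2-11cKO untreated, and 11.53, 11.82 and 11.64 in Notch2-11cKO SRBC. The 5 WT arrays were all above the 5 Notch2-11cKO arrays. Untreated, it was 1.90-fold lower in Notch2-11cKO (-0.93 ± 0.17; -1.31 to -0.55; adjusted p = 0.00856), and after SRBC the difference was -0.53 ± 0.14 (-0.84 to -0.22; adjusted p = 0.0543).

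The untreated call of S100a11 was lost without WT untreated 1 (adjusted p = 0.0704), WT untreated 2 (0.0942) or Notch2-11cKO untreated 1 (0.112). The difference after SRBC passed in 8 of 22 settings. Its responses to SRBC were -0.23 ± 0.16 in WT (adjusted p = 0.517) and 0.17 ± 0.16 in Notch2-11cKO (adjusted p = 0.784). A second probe set of S100a11 was within 0.06 log2 units of the first on every array. RefSeq lists a pseudogene, S100a11-ps, so signal from near-identical copies could be shared.

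S100a1, known from heart and skeletal muscle as a regulator of calcium cycling, was higher in Notch2-11cKO. It was at 5.11 and 4.91 in WT untreated, 5.60, 4.75 and 4.43 in WT SRBC, 5.99 and 6.23 in Notch2-11cKO untreated, and 7.06, 5.90 and 6.48 in Notch2-11cKO SRBC, so that WT values lay around the median gene and Notch2-11cKO values above it. After SRBC it was 2.93-fold higher in Notch2-11cKO (1.55 ± 0.31; 0.86 to 2.24; adjusted p = 0.0148), and untreated the difference was 1.10 ± 0.38 (0.26 to 1.95; adjusted p = 0.165). The call after SRBC was lost without WT SRBC 2 (adjusted p = 0.0598), WT SRBC 3 (0.0587) or Notch2-11cKO SRBC 1 (0.0578), and with only the groups compared (0.0528). S100a1 did not pass in the WT response (-0.08 ± 0.35; -0.85 to 0.69; adjusted p = 0.946) or in the Notch2-11cKO response (0.37 ± 0.35; -0.40 to 1.14; adjusted p = 0.785).

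S100a6 (calcyclin), which binds the ubiquitin-ligase adaptor encoded by Cacybp and annexin A11, had log2 intensities of 10.99 and 11.36 in WT untreated, 10.59, 11.26 and 11.24 in WT SRBC, 11.64 and 11.82 in Notch2-11cKO untreated, and 11.81, 12.07 and 11.71 in Notch2-11cKO SRBC. WT SRBC 1 was the lowest array. After SRBC it was 1.78-fold higher in Notch2-11cKO (0.83 ± 0.19; 0.41 to 1.25; adjusted p = 0.0282), and untreated the difference was 0.56 ± 0.23 (adjusted p = 0.285). The call after SRBC was lost without Notch2-11cKO SRBC 1 (adjusted p = 0.0773) or 2 (0.0976), with only the groups compared (0.0829) and with quantile normalization (0.68, adjusted p = 0.05). The SRBC responses were -0.15 ± 0.21 in WT and 0.13 ± 0.21 in Notch2-11cKO (adjusted p = 0.804 and 0.906).

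S100a13, which takes part in the export of Fgf1 and Il1a without a signal peptide, was at 6.14 and 6.64 in WT untreated, 6.94, 6.75 and 6.84 in WT SRBC, 6.97 and 7.35 in Notch2-11cKO untreated, and 7.11, 7.91 and 7.43 in Notch2-11cKO SRBC. The genotypes were next to each other without overlap. The genotype difference of S100a13 was 0.77 ± 0.27 untreated (0.17 to 1.37; adjusted p = 0.179) and 0.64 ± 0.22 after SRBC (0.15 to 1.13; adjusted p = 0.147), and the responses were 0.45 ± 0.25 in WT (adjusted p = 0.412) and 0.32 ± 0.25 in Notch2-11cKO (adjusted p = 0.736). None passed under any of the alternatives run.

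Its cargo Il1a, the precursor of interleukin-1 alpha, was at 2.56 and 3.47 in WT untreated, 5.05, 7.16 and 7.81 in WT SRBC, 4.38 and 5.62 in Notch2-11cKO untreated, and 7.44, 6.81 and 10.02 in Notch2-11cKO SRBC. The WT untreated values and Notch2-11cKO untreated 1 lay below the median gene and are not shown to be above background. The spread within groups was wide, and the Il1a response was 3.66 ± 0.92 in WT (adjusted p = 0.0526) and 3.09 ± 0.92 in Notch2-11cKO (adjusted p = 0.23). Fgf1 was at 0.00 ± 0.13 and -0.10 ± 0.13 in these responses.

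S100a4, a partner of non-muscle myosin IIA in cell migration, was the gene with no clear difference. The arrays gave log2 values of 11.79 and 11.99 in WT untreated, 11.07, 12.13 and 12.04 in WT SRBC, 11.67 and 11.92 in Notch2-11cKO untreated, and 11.82, 11.71 and 12.15 in Notch2-11cKO SRBC. All 4 groups overlapped, and WT SRBC 1 was 0.67 below its group mean. The intervals were -0.74 to 0.45 for the WT response, -0.49 to 0.70 for the Notch2-11cKO response, -0.75 to 0.56 between untreated genotypes and -0.38 to 0.68 after SRBC, so changes of S100a4 within those bounds were not excluded by these arrays. The heavy chain of its myosin, Myh9, was at -0.37 ± 0.23 and -0.39 ± 0.19 between the genotypes (adjusted p = 0.56 and 0.312).

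By group, S100a8 had the order WT untreated (mean log2 4.03 ± 0.07), Notch2-11cKO untreated (5.41 ± 0.93), WT SRBC (6.88 ± 0.51) and Notch2-11cKO SRBC (8.47 ± 0.77; SD, n = 2, 2, 3 and 3), and the untreated genotypes did not differ past the threshold. S100a9 had the same order, at 4.43, 6.10 ± 1.93, 6.93 ± 0.33 and 7.98 ± 0.99. Its arrays of the upper 3 groups overlapped, and those of WT untreated lay below them. S100a10 was lowest in WT SRBC (8.23 ± 0.41), then WT untreated (9.42 ± 0.08), Notch2-11cKO untreated (10.18 ± 0.71) and Notch2-11cKO SRBC (10.26 ± 0.58), the last pair overlapping. S100a11 ran from Notch2-11cKO untreated (11.50 ± 0.21) and Notch2-11cKO SRBC (11.66 ± 0.15) to WT SRBC (12.19 ± 0.22) and WT untreated (12.43 ± 0.06), with neither treatment pair differing past the threshold. S100a1 (4.93 ± 0.60 in WT SRBC, 5.01 ± 0.14 in WT untreated, 6.11 ± 0.17 in Notch2-11cKO untreated and 6.48 ± 0.58 in Notch2-11cKO SRBC) and S100a6 (11.03 ± 0.38, 11.17 ± 0.26, 11.73 ± 0.13 and 11.86 ± 0.19) had 1 order, and within a genotype their treatments overlapped. S100a13 ran from WT untreated (6.39 ± 0.36) through WT SRBC (6.84 ± 0.09) and Notch2-11cKO untreated (7.16 ± 0.27) to Notch2-11cKO SRBC (7.48 ± 0.40). S100a4 means lay between 11.74 and 11.89, with no order beyond their spread.

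The remaining family was measured for 9 of 10 genes (S100a2, S100a3, S100a5, S100a7a, S100a14, S100a16, S100b, S100g and S100z), with group means between 3.53 and 5.35, mostly near or below the median gene. The 1 call among them was S100a14, which rose 1.60-fold in WT after SRBC (0.68 ± 0.15, adjusted p = 0.0346), where 3.79% of all genes passed. Its log2 values were 3.81 and 3.71 in WT untreated, 4.14, 4.52 and 4.66 in WT SRBC, 3.96 and 4.14 in Notch2-11cKO untreated, and 4.08, 4.30 and 4.20 in Notch2-11cKO SRBC, below the median gene on each array. The call held in 11 of 21 settings and was lost, among others, without WT untreated 1 (adjusted p = 0.196) or 2 (0.227) and without WT SRBC 2 (0.0971) or 3 (0.102). S100a7a, the neighbour of S100a8 on the other side from S100a9, lay between 5 and 5.24 on all arrays.

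**Figure D5:**
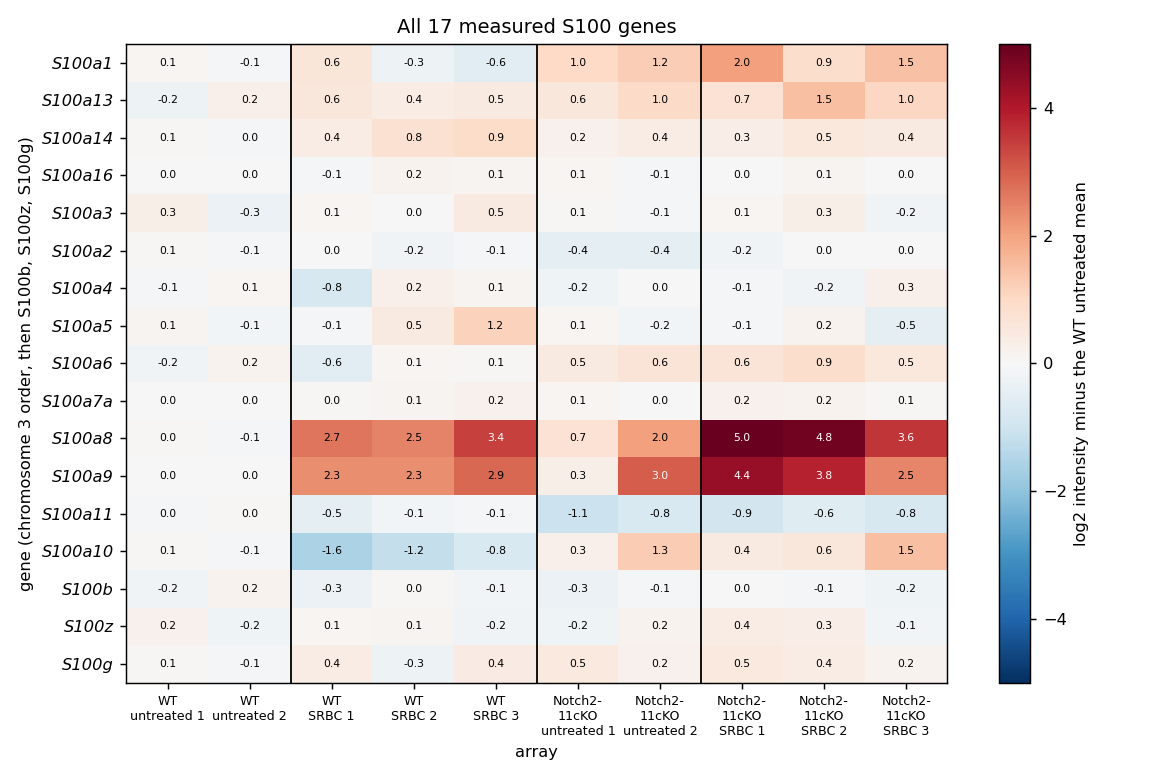
Log2 intensity minus the WT untreated mean (colour and printed value) for the 17 measured S100 genes (rows, in chromosome 3 order and then S100b, S100z and S100g) on the 10 arrays (columns). S100a8 and S100a9 form the strongest rows, S100a1, S100a6, S100a10 and S100a13 are positive and S100a11 is negative in Notch2-11cKO; of the others, S100a14 is positive on all WT SRBC arrays, S100a5 is high on WT SRBC 3 (log2 5.96) and S100a4 is low on WT SRBC 1 (log2 11.07).

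Beyond the family, other EF-hand calcium binders were measured for 16 genes. Aif1 (allograft inflammatory factor, an actin-bundling protein of macrophages) was higher in Notch2-11cKO by 1.91 ± 0.24 untreated (adjusted p = 0.000612) and 1.39 ± 0.19 after SRBC (adjusted p = 0.0015), and Guca1a, a guanylate cyclase activator of photoreceptors, by 1.26 ± 0.25 (adjusted p = 0.0118) and 1.72 ± 0.20 (adjusted p = 0.000503). Chp1 rose in the WT response (1.28 ± 0.30, adjusted p = 0.0393). The other members did not pass in these comparisons. In the Notch2-11cKO response none of the 16 passed (1 at an unadjusted limma p below 0.05), where 0.306% of all genes did. Of all genes, 3.79% passed in the WT response, 5.11% between untreated genotypes and 5.32% after SRBC.

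Among 11 measured proteins that S100 members bind inside the cell, Cybb, the oxidase subunit to which calprotectin delivers arachidonic acid, was higher in Notch2-11cKO by 1.29 ± 0.32 untreated (adjusted p = 0.0383) and 1.87 ± 0.26 after SRBC (adjusted p = 0.00137). Rac2, a GTPase of the same oxidase, went the other way: it fell by 1.45 on the log2 scale in the WT response (SE 0.22, adjusted p = 0.0044) and was at -1.17 ± 0.24 between untreated genotypes (adjusted p = 0.0149). With Ahnak, these were the 3 members of the list that passed in any simple comparison. Of all genes, 3.79% passed in the WT response, 5.11% between untreated genotypes and 5.32% after SRBC.

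Actin-binding and associated proteins (11 genes) showed 5 higher in Notch2-11cKO in each treatment: Capg, Vim, Lgals1, Lgals3 and Crip1. Of all genes, 5.11% passed untreated and 5.32% after SRBC. The actin-capping protein Capg had the largest difference of the 5, 4.88 ± 0.33 untreated and 3.71 ± 0.27 after SRBC (adjusted p = 1.35e-05 and 2.23e-05). Capg was at 3.91 and 4.14 in WT untreated and 4.56 to 5.16 in WT SRBC, below or near the median gene. These WT values are not shown to be above background. Scin, an actin-severing protein, rose 9.89-fold in the WT response (3.31 ± 0.49, adjusted p = 0.00405) and was 4.22-fold lower in Notch2-11cKO after SRBC (-2.08 ± 0.44, adjusted p = 0.0182). Scin was at 3.68 and 4.06 in WT untreated, below the median gene and not shown to be above background. In Notch2-11cKO SRBC it was at 4.72, 4.44 and 6.15, with arrays 1 and 2 also below the median gene. Both folds thus compare measured intensities only. Vim and Crip1 also rose in the WT response, and Gsn and Pfn1 fell.

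Among 9562 genes above the median level, the 3 most like each S100 gene by Pearson r over the 10 arrays were named, as a description over arrays that share 4 groups. For S100a8 they were Opa1 (0.953), S100a9 (0.948) and Malsu1 (0.947), and for S100a9 they were S100a8 (0.948), Tgm1 (0.926) and Cul4a (0.915). After removal of group means, S100a8 kept 0.931 with S100a9 against 0.487 with Opa1. S100a10 was most like Etfb (0.964), Dnajc15 (0.948) and Enoph1 (0.940), S100a11 like Spint1 (0.981), Cd7 (0.975) and Npl (0.964), and S100a1 like Atg5 (0.959), Slc6a20a (0.949) and Batf2 (0.948). S100a6 was most like Idh3g (0.956), Wfdc17 (0.955) and Hcst (0.954), S100a13 like Ero1a (0.953), Smim4 (0.936) and Osbpl1a (0.935), and S100a4 like Mlec (0.947), Zfp84 (0.947) and Jagn1 (0.942). S100a4 and these 3 genes were all lowest on WT SRBC 1, an array that stood apart. After removal of group means, r with S100a4 was 0.949, 0.958 and 0.962.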

How the data were processed

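Splenic cDC2 RNA was measured on 10 Affymetrix Mouse Gene 1.0 ST arrays in 4 groups. The deposited values are linear intensity, which the authors had normalized between arrays (the method is not named in the labels), and their 28853 probe sets have no value at or below 0 (2.569 to 11436.78). The values were log2 transformed here. For each of 19938 genes named alone by a probe set, the probe set with the highest mean was kept, with no filter on dim genes; 1621 probe sets with several symbols and 5443 with none were left out. Group means were fitted with limma (lmFit, then eBayes with trend; residual degrees of freedom 6, prior 5.25), giving 5 two-sided comparisons, adjusted by Benjamini-Hochberg over all genes at 0.05. Every adjusted p in the text is limma's; ± is the fit's standard error unless SD is named.

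The members, the 15 lists (139 of 151 genes measured) and the tests were chosen with earlier results of these data known. Named genes were the S100 genes, up to 4 members of a list with the smallest p, and the 3 genes most like each member; other genes were named after their values were seen. Promoter letters came from RefSeq windows on GRCm38.p6. The fit was tested on simulated data. Alternatives were another choice of probe set, a filter on dim genes, other normalizations and variance models, array weights, only the groups compared, a replicate block, log2(value + 16), and arrays left out. R 4.3.3, limma 3.58.1 and Python 3.11.15 were used.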

Additional observations from a re-analysis of the deposited data

Results flagged for a closer look

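For 3 S100 genes every array lay above a reference group's mean in 1 contrast and below such a mean in the matching contrast. The test of the difference itself did not pass. S100a11 was lower than the WT untreated mean on all WT SRBC arrays and higher than the Notch2-11cKO untreated mean on all Notch2-11cKO SRBC arrays, with a difference between the responses of 0.40 (limma adjusted p = 0.856). S100a2 had the same pattern, with a difference of 0.48 (limma adjusted p = 0.607), at log2 values of 4.61 and 4.46 in WT untreated, 4.50, 4.34 and 4.46 in WT SRBC, 4.10 and 4.09 in Notch2-11cKO untreated, and 4.35, 4.52 and 4.54 in Notch2-11cKO SRBC. S100a14 was above the WT untreated mean on all Notch2-11cKO untreated arrays and below the WT SRBC mean on all Notch2-11cKO SRBC arrays. The difference was -0.54 (limma adjusted p = 0.706). Its SRBC groups overlapped, with WT SRBC 1 at 4.14 and Notch2-11cKO SRBC 2 at 4.30. With groups of 2 and 3 arrays such patterns also arise by chance.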

How the results depend on the processing

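With groups of 2 and 3 arrays, calls near the threshold moved with the settings; the causes were not tested. S100a10 after SRBC (Notch2-11cKO minus WT) passed in all 22 settings. Of 12 settings other than leaving out 1 array, array weights, leaving out both arrays that stood apart, and fitting only the groups compared changed the most.

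Genes called in the WT response were 1886 with array weights and 2300 with both arrays that stood apart left out, and 101 to 1331 with each array left out in turn. In the Notch2-11cKO response they were 37 with all probe sets by ID, 103 without a mean-variance trend, 267 with array weights, 23 with only the groups compared, 398 without both arrays, and 2 to 183 with each left out. Between untreated genotypes they were 1822 with array weights, 1966 with only the groups compared, 1996 without both arrays, and 418 to 1390 with each left out, and after SRBC 1615, 627, 2364, and 649 to 1256. Interactions called were 2 with only genes above the median level, 7 without a trend, 63 with array weights, 604 without both arrays, and 0 to 44 with each left out.

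Of the 8 S100 genes, the WT response called 2 with only genes above the median level or only the groups compared (S100a8 and S100a9), 2 with the replicate block (S100a8 and S100a10), 3 with array weights or without both arrays (S100a8, S100a9 and S100a10), and 0 to 3 with each array left out. The Notch2-11cKO response called 0 with only the groups compared and 0 to 1 with each left out. Untreated genotypes gave 2 with array weights (S100a1 and S100a11), 4 with only the groups compared or without both arrays (S100a1, S100a6, S100a8 and S100a11), and 0 to 1 with each left out. After SRBC 1 (S100a10) was called with only the groups compared, and 1 to 4 with each left out.

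Direction changed only for values that had not passed. S100a4 in the WT response was 0.05 with quantile normalization, 0.06 with array weights and 0.19 without both arrays (-0.34 to 0.19 with each left out). S100a4 in the Notch2-11cKO response was -0.04 with the replicate block and -0.03 without both arrays (-0.03 to 0.22), between genotypes after SRBC -0.10 with array weights and -0.31 without both arrays (-0.19 to 0.34), untreated -0.22 to 0.03 with each left out, and in the interaction 0.00 with array weights and -0.22 without both arrays (-0.09 to 0.44). S100a6 in the WT response was 0.06 with quantile normalization and 0.08 without both arrays (-0.33 to 0.08). S100a10 in the Notch2-11cKO response was -0.08 with array weights, -0.19 with the replicate block and -0.25 without both arrays (-0.42 to 0.58). S100a1 in the WT response was 0.04 with the replicate block (-0.42 to 0.16). With each array left out, the interaction ranged from -0.45 to 0.87 for S100a8, -1.99 to 0.74 for S100a9 and -0.38 to 0.12 for S100a13, and S100a2 between genotypes after SRBC from -0.01 to 0.09.

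Whether the replicate numbers pair the arrays was not settled: 6 of 13 same-numbered pairs of groups correlated above 0.1 in their deviations (-0.22 to 0.48). In a group of 2 arrays the deviations mirror each other, so the 13 values are not independent. The untreated genotypes thus gave 0.11 for replicate 1 and for replicate 2. Between WT SRBC and Notch2-11cKO SRBC the values were 0.48, -0.22 and 0.40 for replicates 1, 2 and 3, and shared handling was not tested. With the replicate number as a block, S100a10 fell in WT after SRBC (-1.46, adjusted p = 0.0119). Among the SRBC arrays, S100a11 was lower in Notch2-11cKO than in WT (-0.53, adjusted p = 0.022), and the genotype difference of S100a8 had an adjusted p of 0.0535. S100a14 and S100a2 are below the median level and have no value with the filter, and the interaction has none with only the groups compared.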
